A study of Arabidopsis thaliana with 2 samples.

Results

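Auxin genes were examined in a list of 529 LEAFY (LFY) chromatin immunoprecipitation peaks from Arabidopsis thaliana. A peak was counted for a gene when the authors' annotation gave that gene as the nearest promoter or named it in the annotation of the peak. The 8 genes described here were chosen by the peaks in this list, that is by the naming of a peak and its position, score and distance. ARF8 was included among them although no peak named it. The synthesis genes were YUC1 (AT4G32540) and YUC4 (AT5G11320), and the transport gene was AUX1 (AT2G38120). The response genes were ARF5 (AT1G19850), ARF6 (AT1G30330), ARF8 (AT5G37020), IAA17 (AT1G04250) and TMO5 (AT3G25710). All 8 are among the 37899 nuclear genes in the gene table. By this rule 7 of the 8 had a peak, 1 each, and ARF8 had none, where 1.5% of all nuclear genes were named by a peak and 1.32% were the nearest promoter of a peak. Since the choice rested on the peaks, nothing is read from that count, and their positions and scores are given as a description, with no test.

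All tissue was inflorescence of ap1 cal1 plants grown for 4 weeks. These plants are mutant for the floral regulators APETALA1 and CAULIFLOWER and carried the construct 35S;LFY-GR, LFY joined to a steroid receptor domain that holds the protein out of the nucleus until dexamethasone is given. The tissue was harvested 4 h after dexamethasone was applied at 10 µM. There was 1 library precipitated with rabbit polyclonal whole serum raised against LFY and 1 input library, which was not precipitated, from the same genotype and treatment. The 35S promoter is active in most tissues of the plant, so LFY-GR was not limited to the cells that normally make LFY, and the serum does not tell LFY-GR from native LFY. There was no untreated library, no library without the construct and no replicate. Inflorescence tissue holds more than 1 kind of cell, and the peaks do not show in which cells the protein was bound.

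Auxin is made in plants mainly by TAA aminotransferases followed by YUCCA monooxygenases. It enters cells through carriers of the AUX1/LAX family and leaves them through PIN proteins. Inside the nucleus it binds TIR1/AFB receptors, which leads to the breakdown of Aux/IAA repressors and frees the auxin response factors (ARFs) to act on their target genes. In the inflorescence, local auxin maxima mark the sites where flowers start. ARF5, also called MONOPTEROS, is required for flowers to form and is known to activate LFY, and LFY has in turn been reported to act on auxin pathway genes.

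The 7 peaks lay away from transcription start sites (TSSs). Of the 7, 5 were classed as intergenic and 2 as lying at a transcription termination site (TTS). None was given the promoter, exon, intron or untranslated region class. Each peak has 1 class, so a wide peak may still extend over gene sequence. The YUC4 peak (2473 bp) began 364 bp downstream of the YUC4 TSS and was classed at the YUC4 TTS, so it covered part of that gene. Over all 529 peaks, 121 (22.9%, 95% Wilson interval 19.5 to 26.6) were intergenic, 75 (14.2%, interval 11.5 to 17.4) were at a TTS and 214 (40.5%, interval 36.4 to 44.7) were in a promoter. Intervals cover counting error only. Measured from its centre, a peak's distance to the nearest TSS had a median of 3088 bp over the 7 peaks and ranged from 1600 to 3982 bp. Over all peaks the median distance was 845 bp. None of the 7 was centred within 1 kb of a TSS, where 299 of all 529 peaks were (56.5%, interval 52.3 to 60.7). Distance was among the values that chose the genes, so nothing is read from this contrast. All 7 were centred farther than 1.5 kb away, a limit set after the distances were seen, against 170 of 529 (32.1%, interval 28.3 to 36.2). Between 3 and 4 kb lay 4 of the 7, against 34 of all 529 peaks (6.43%). Class and distance are not independent, since no intergenic peak in the list was centred closer than 1002 bp to a TSS. The 121 intergenic peaks had a median distance of 2154 bp, and the 5 intergenic peaks of the auxin genes had a median of 3088 bp.

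**Figure D1:**
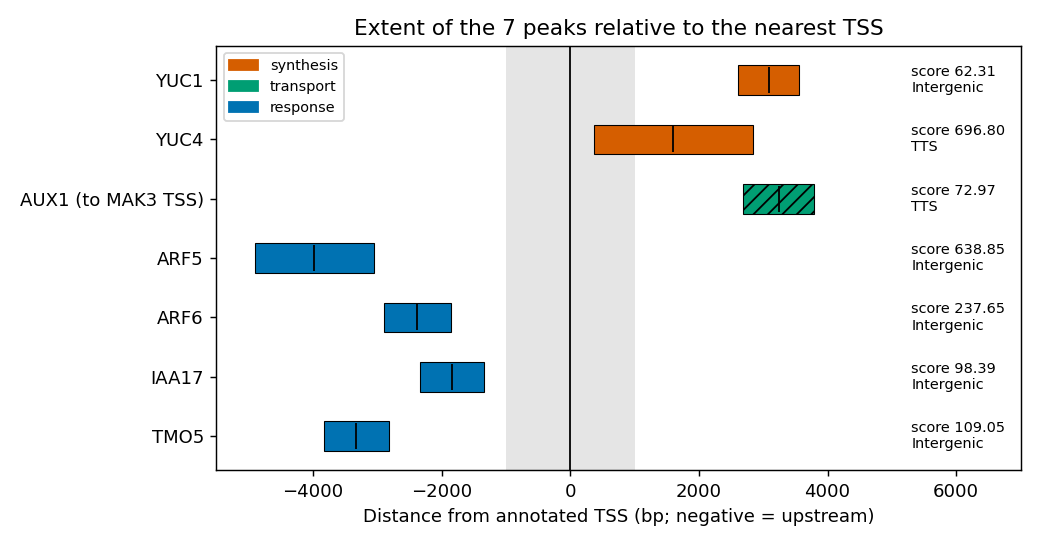
Extent of the 7 peaks along the axis of distance from the nearest annotated TSS in bp (negative is upstream), coloured by the role of the gene, with a tick at each peak centre and the score and class at the right. The grey band marks 1 kb on either side of the TSS and the AUX1 bar is hatched because its distance is to the TSS of MAK3. The 4 response gene peaks lie upstream, the synthesis and transport gene peaks lie downstream, and no centre falls inside the band.

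The peaks of the response genes and those of the other genes lay on opposite sides of the TSS. ARF5, ARF6, IAA17 and TMO5 each had an intergenic peak upstream, centred between 1843 and 3982 bp before the TSS. YUC1 and YUC4 each had a peak downstream of the TSS, and the peak at AUX1 was at the 3' end of that gene. Over the whole list 90 of 529 peaks (17.0%) were upstream by more than 1.5 kb and 80 (15.1%) were downstream by more than 1.5 kb. The side largely follows the annotation class in this list. Of the 121 intergenic peaks 98 (81.0%) were upstream of the nearest TSS, and of the 75 TTS peaks 58 (77.3%) were downstream, so the 4 upstream intergenic peaks and both downstream TTS peaks were on the usual side of their class. With 4, 2 and 1 peaks in the response, synthesis and transport groups, this split describes these genes and is not a property shown for the groups.

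YUC4, which encodes a YUCCA enzyme for the last step of auxin synthesis and acts with YUC1 in flowers, had the highest-scoring peak of the 7. It lay on chromosome 5 from 3610525 to 3612997 (TAIR10) and had a score of 696.8, rank 30 of 529. Scores are the authors' deposited values from their peak caller, with no stated scale, and the highest in the list was 2952.29. The YUC4 peak was annotated at the TTS of YUC4 and was centred 1600 bp downstream of its TSS. At 2473 bp it was the widest of the 7, and 24 of the 529 peaks were wider. Its nearer edge was 364 bp from the TSS, so that it came closest to a TSS of all 7 but did not cover it. Among the 75 peaks at a TTS it ranked 2 by score. Neither neighbouring protein-coding gene, AT5G11310 or AT5G11330, was named by a peak.

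YUC1, which encodes the related enzyme, stood at the other end of the score range. Its peak lay on chromosome 4 from 15703518 to 15704466 and had a score of 62.31, rank 449 of 529, where the lowest score in the list was 50.03. It was intergenic, centred 3088 bp downstream of the YUC1 TSS, and 949 bp wide. Among the 121 intergenic peaks it ranked 111. Only 23 of all 121 intergenic peaks were downstream of the nearest TSS, so the YUC1 peak was on the less common side of its class. In the gene order YUC1 stands between AT4G32535 and LUG, which encodes the corepressor LEUNIG that limits AGAMOUS expression. LUG was not named by any peak. YUC4 and YUC1 had the highest and the lowest scores of the 7 peaks, although both were downstream of the TSS.

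AUX1, which encodes an auxin influx carrier, was named through the annotation of the peak, not as the nearest promoter. The peak lay on chromosome 2 from 15976923 to 15978032, was 1110 bp wide and had a score of 72.97, rank 413 of 529. It was annotated at the TTS of AUX1, while the nearest TSS was that of the neighbouring gene MAK3 (AT2G38130, ATMAK3 in the file), which encodes an N-terminal acetyltransferase component, 3238 bp away. The peak was downstream of that TSS as well. The file does not give its distance to the AUX1 start. Such split naming was common, as 35 of the 75 TTS peaks had another gene as their nearest promoter and 40 had the same gene.

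ARF5 had the highest-scoring peak of the response genes. It lay on chromosome 1 from 6881973 to 6883821, was 1849 bp wide and had a score of 638.85, rank 43 of 529 and rank 19 among the 121 intergenic peaks. It was intergenic and centred 3982 bp upstream of the TSS, the farthest of the 7, and only 19 peaks in the whole list were farther from their nearest TSS. Its nearer edge was still 3058 bp from the TSS. A second peak 8394 bp away was assigned to AT1G19840, which the authors' annotation describes as a SAUR-like auxin-responsive protein and which stands next to ARF5 in the gene order. That peak had a score of 90.15, rank 351, and was centred 219 bp downstream of the AT1G19840 TSS in its only exon. AT1G19840 was on none of the auxin lists and is named because it was seen beside ARF5.

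ARF6 and ARF8 encode closely related activating ARFs that act redundantly in the growth and maturation of flower organs and are both targets of the microRNA miR167. ARF6 had an intergenic peak on chromosome 1 from 10692684 to 10693740 with a score of 237.65, rank 161 of 529. It was centred 2374 bp upstream of the TSS and was 1057 bp wide. Another peak, 13.4 kb away, was assigned to AT1G30320, the protein-coding gene beside ARF6. Its score of 273.74 (rank 136) was above that of the ARF6 peak.

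ARF8 was not named by any peak, either as nearest promoter or in an annotation, and neither were the protein-coding genes on both sides of it, AT5G37010 and AT5G37030. In the gene order it falls between AT5G36220 (score 136, chromosome 5 from 14254608 to 14256020) and AT5G37610 (score 165, from 14937883 to 14939288). The 682 kb between these peaks held no other peak and ranked 28 by length among the 524 gaps between neighbouring peaks, whose median was 108 kb. Read counts were not used here, so it cannot be said how far a signal at ARF8 lay below the threshold of the caller. The pair ARF6 and ARF8 thus differed in whether a peak was called, and that difference could not be tested.

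IAA17, also known as AXR3, encodes an Aux/IAA repressor of ARFs. Its peak lay on chromosome 1 from 1133917 to 1134913, was 997 bp wide and had a score of 98.39, rank 326 of 529. It was intergenic, centred 1843 bp upstream of the TSS. IAA17 stands beside another Aux/IAA gene, IAA3 (SHY2), which was not named by any peak. The RefSeq gene order places the noncoding gene AT1G04253 between them.

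TMO5 (BHLH32 in the file) encodes a bHLH factor known as a direct target of ARF5 in the embryo, where it promotes divisions of vascular cells with its partner LHW. Its peak lay on chromosome 3 from 9365696 to 9366694, was 999 bp wide and had a score of 109.05, rank 304 of 529. It was intergenic and centred 3324 bp upstream of the TSS. Neither neighbouring protein-coding gene was named by a peak. Its paralogues T5L1, T5L2 and T5L3 and its partner LHW had no peak.

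The 7 peaks differed widely in score. YUC4 and ARF5 had scores of 696.8 and 638.85 and were among the 43 highest of the list, and ARF6 at 237.65 was also among the 265 higher-scoring peaks. TMO5, IAA17, AUX1 and YUC1 had scores between 62.31 and 109.05, below the median of 132.77 over all peaks. The median of the 7 was 109.05, against 179.2 for all intergenic peaks and 161.95 for all TTS peaks. YUC4 and ARF5 were also the only ones of the 7 wider than the median width of 1168 bp, and the other 5 were between 949 and 1110 bp wide. Among the 133 peaks of its width quartile TMO5 ranked 48 by score and IAA17 ranked 55, both in the upper part, while AUX1 (rank 115) and YUC1 (rank 100) stayed in the lower part. Over all 529 peaks width and score had a Spearman correlation of 0.19 and distance and score one of 0.10, given as descriptions of peaks that share 1 library. The 7 peaks were spread over all 5 chromosomes, with 3 on chromosome 1. Their nearest neighbouring peak was between 8394 and 115799 bp away (median 93957 bp), against a median of 50213 bp over all peaks.

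**Figure D2:**
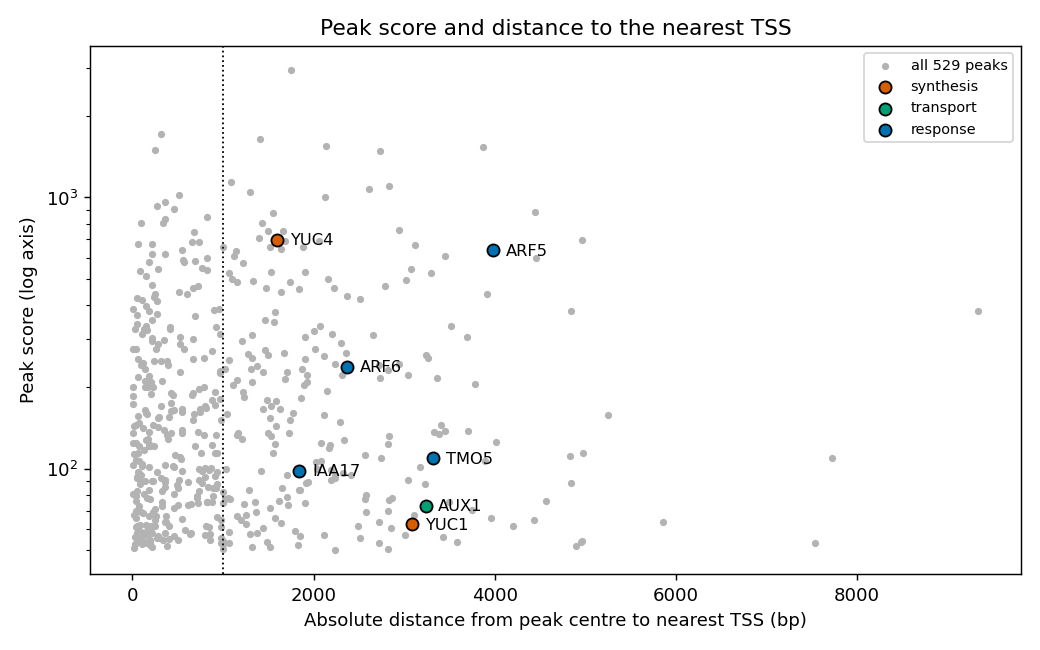
Peak score (log axis) against the absolute distance in bp between a peak's centre and the TSS closest to it, for all 529 peaks (grey) and the 7 peaks of auxin genes, coloured by role. The dotted line marks 1 kb, and all 7 lie to its right, with YUC4 and ARF5 at scores of 696.8 and 638.85 and TMO5, IAA17, AUX1 and YUC1 at or below 109.05.

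The rest of the auxin pathway was read from 7 lists with 106 genes in all, drawn up by role and including the 8 genes above. Of the 106, 11 had a peak (10.4%, 95% Wilson interval 5.89 to 17.6), against a background of 1.5% of all nuclear genes (570 of 37899) and 1.98% of protein-coding genes. Because 7 of these 11 are genes chosen for their peaks, the count supports nothing about auxin genes as a class. Of the 98 other genes 4 had a peak (4.08%), namely ABCB1, ARF10, IAA16 and IAA26. The lists themselves were drawn up with earlier results of these data known, so nothing is read from this share against the background. Among the 265 higher-scoring peaks 4 of the 106 genes were named (background 0.755%), and among the 133 highest 3 were (background 0.377%). In both of these, ARF10 was the only gene not chosen for its peak. By the locus in the annotation alone 4 were (background 1.04%), and with peaks within 3 kb of a TSS 6 were (background 1.36%). These counts also include chosen genes, so nothing is read from them against the background. When a peak at the adjacent protein-coding gene also counted, 18 were, against 5.23% of protein-coding genes.

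The counts by role include the genes chosen for their peaks, and the lists were drawn up with earlier results of these data known. A peak named 1.5% of all nuclear genes and 1.98% of protein-coding genes. Of 16 synthesis genes 2 had a peak, the chosen YUC1 and YUC4, and 0 of the other 14 did. TAA1, its relatives TAR1 and TAR2, and the other 9 YUC genes had none. No peak named any of 7 GH3 genes, whose products conjugate auxin to amino acids (Wilson interval of the share 0 to 35.4%). The 6 TIR1/AFB receptor genes were not named by any peak either (Wilson interval 0 to 39.0%). Among 19 transport genes AUX1 and ABCB1 had a peak, which is 1 of 18 without the chosen AUX1. None of the 8 PIN genes and none of LAX1, LAX2 and LAX3 did. ABCB1, which encodes an auxin efflux transporter, had an intergenic peak (score 123.53, rank 279) centred 2827 bp upstream of its TSS.

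Of 23 ARF genes 3 had a peak, and 1 of the 20 that were not among the chosen genes. The background was 1.5% of all nuclear genes and 1.98% of protein-coding genes. ARF10, which encodes a repressing ARF and is a target of miR160, had an intergenic peak on chromosome 2 from 12110768 to 12111842 with a score of 496.21, rank 68 of 529, centred 3026 bp upstream. ARF5, ARF6 and ARF10 were therefore alike in class and side, with centres from 2374 to 3982 bp upstream of the TSS. The same class and side were found for IAA17, TMO5 and ABCB1, and this was the usual position of an intergenic peak, since 71 of all 121 intergenic peaks (58.7%) were more than 1.5 kb upstream.

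Of 29 Aux/IAA genes 3 had a peak, and 2 of the 28 other than the chosen IAA17. The background was 1.5% of all nuclear genes and 1.98% of protein-coding genes. Here the positions differed from gene to gene. IAA16 had a promoter peak centred 105 bp upstream of the TSS (score 52.68, rank 517). IAA26 (PAP1 in the file) had a promoter peak centred 890 bp upstream (score 79.15, rank 384). These were the 2 of the 11 peaks centred within 1 kb of a TSS, where 0.865% of all nuclear genes were named by such a peak. All 3 Aux/IAA peaks, IAA17 included, had scores of 98.39 or less.

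**Figure D3:**
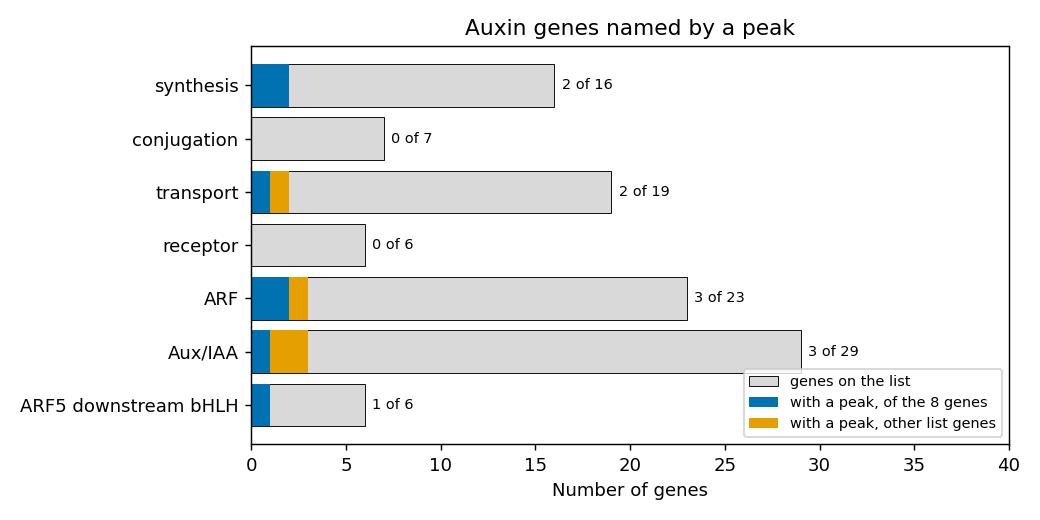
Number of genes on each of the 7 auxin lists (grey bars, count on the horizontal axis) and of those named by a peak, split into the 8 genes described (blue) and other list genes (orange). The counts are 2 of 16 for synthesis, 0 of 7 for conjugation, 2 of 19 for transport, 0 of 6 for receptors, 3 of 23 for ARF, 3 of 29 for Aux/IAA and 1 of 6 for the bHLH genes around TMO5. They include genes chosen for their peaks, and 1.5% of all nuclear genes and 1.98% of protein-coding genes were named by a peak.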

How the data were processed

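LFY chromatin immunoprecipitation and input DNA were sequenced from ap1 cal1 inflorescences with 35S;LFY-GR, 1 library each, from chromatin sheared to about 200 to 500 bp. The deposited file is 1 annotated peak list. Per the file headers, HOMER annotatePeaks.pl was run with its tair10 set on peaks of the LFY library called against a contrast. MACS 1.4, HOMER, FastQC and TAIR10 are named in the submitters' processing notes. Which library served as contrast is not stated. The aligner, threshold and duplicate handling were not given in the sources used here. The peak score is the authors' deposited value with no stated scale, and was used to rank peaks within the list. Positions and distances are those of the file. Depth is unknown, because no read counts were used here. If the contrast was the input, regions high in both libraries would be dropped.

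Genes were matched by locus, removing the transcript suffix. The gene table (RefSeq, assembly TAIR10.1) supplied symbols, biotypes and gene order, with no coordinates printed. It held 570 of 584 named loci and 104 of 106 list symbols; T5L2 and T5L3 were matched by locus. The 8 genes, the lists and the limits were chosen with earlier results of these data known. Genes named are the 8, list genes with a peak, and genes beside or sharing their peaks; AT1G19840, AT1G30320 and those of the other observations were chosen after their values were seen. The reading of locus names was checked on simulated rows, which does not show whether a peak belongs to the gene named. The planned motif search and protein alignment were not run, as no sequence was used here. No test was made, with 1 library a group. Alternatives were gene assignment, score, distance and width limits and background. Python 3.11.15, pandas 2.3.3, NumPy 2.4.6, SciPy 1.17.1 and matplotlib 3.10.9 were used.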

Additional observations from a re-analysis of the deposited data

How the results depend on the processing

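The count of 11 auxin list genes with a peak depended on what was counted. It was 4 when only the locus in the annotation counted (background 1.04% of genes), 4 with the 265 higher-scoring peaks (background 0.755% of genes), 3 with the 133 highest (background 0.377%), 2 with peaks within 1 kb of a TSS (background 0.865%) and 6 within 3 kb (background 1.36%). In the counts limited by score, ARF10 was the only gene not chosen for its peak. Without the 8 chosen genes the count of 11 became 4, and with the adjacent protein-coding gene counted it was 18 (background 5.23% of protein-coding genes), both chosen after seeing the data. It was 10 by nearest promoter only and 10 without the widest peaks, where YUC4 was lost. The number of the 7 peaks in the upper part by score was 3 over all peaks, 3 within annotation class and 5 within quartiles of width, where TMO5 and IAA17 were added; the cause was not tested. Of 14 single ranks under these settings, 4 moved by over 1.5 times as a percent of the peaks ranked. ARF5 went from 8.13% to 15.7% within its class, YUC4 from 5.67% to 2.67% within its class and 9.09% within its width quartile, and TMO5 from 57.5% to 36.1% within its width quartile. The median distance of 3088 bp ranged from 2614 bp (measured from the nearer peak edge) to 3163 bp, also without each gene in turn, and was 2731 bp for the 6 peaks whose nearest promoter is among the genes. No paired analysis was possible because each group has 1 library and no test was made. With no replicate library, the error of any peak is unknown, and a gene without a peak is not shown to be unbound.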

Other observations

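Auxin words in the authors' gene names, aliases or descriptions picked out 11 peaks, of which 3 were at genes outside the lists. These were chosen after their values were seen. CRF2, which also carries the name TARGET OF MONOPTEROS 3 (TMO3) and encodes a cytokinin response factor, had an intergenic peak centred 2940 bp upstream of its TSS with a score of 243.9 (rank 155). AIR12, named as induced by auxin in root cultures, had a peak in its exon, 373 bp downstream of the TSS, with a score of 66.63, rank 433. The remaining gene was AT1G19840, beside ARF5.

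For 7 of the 106 list genes, all without a peak of their own, an adjacent protein-coding gene was named. With the 11 that had their own peak this gave 18, against 5.23% of protein-coding genes named themselves or beside a named gene. Genes chosen for their peaks are among the 18. GH3.3 stands beside CYP96A1, which had an intergenic peak centred 2016 bp upstream of its own TSS with a score of 275.76. IAA5 stands beside CYCA2;3, a cyclin gene, whose intergenic peak was centred 1481 bp upstream with a score of 179.2. PIN3 stands beside AT1G70944, whose promoter peak had a score of 76.18. ARF2 stands beside AT5G61997, with a peak score of 89.5, and IAA15 beside AT1G80380, with a peak score of 66.92. ARF3, also called ETTIN, stands beside AT2G33870, whose peak had the lowest score of the list, 50.03. IAA3 counts only through the peak of its neighbour IAA17, which is among the genes chosen for their peaks. The file gives no distance from these peaks to the list genes themselves.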
